A study of Homo sapiens with 9 samples.

Results

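Unnamed long non-coding RNAs (lncRNAs) are genes that the human annotation lists as lncRNA under an ENSEMBL identifier, without a symbol. They were followed here in RNA immunoprecipitation (RIP) with antibodies against the nuclear or the cytoplasmic poly(A) binding protein. Of 51105 genes with a value in both comparisons of the series, 166 were lncRNAs without a symbol whose mean normalised read count, the deposited baseMean, was above 300 both in the table of PABPN RIP and input and in the table of PABPC RIP and input. baseMean is a mean over 6 libraries of reads divided by a size factor, and the genes were chosen by these values, which are therefore given as a description.

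HEK293T cells, a wildtype established line derived from human embryonic kidney, were used throughout. All of them were crosslinked with 0.1% formaldehyde for 10 min, and each of the 3 biological replicates gave 1 lysate that was shared between the antibodies. The groups were 3 libraries of input RNA from total lysate without immunoprecipitation, 3 of PABPN RIP and 3 of PABPC RIP, all from RNA depleted of ribosomal RNA. Values are relative within a library, and in bulk samples fewer cells and less RNA per cell cannot be told apart.

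Poly(A) binding proteins coat the tails of RNAs made by RNA polymerase II. PABPN binds the growing tail in the nucleus, before or while introns are removed, and PABPC replaces it on RNAs that reach the cytoplasm, where it acts in translation and decay. Many lncRNAs are transcribed in the opposite direction from the promoter of a coding gene, are spliced poorly and stay in the nucleus, whereas others are exported much like messages.

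The deposited tables gave means, and the whole reads behind them were recovered for 8029 of 14581 genes whose baseMean exceeded 50 in each table. Recovery gave the reads in each library for 130 of the 166 unnamed lncRNAs. For values of this size recovery rests on the deposited means being sums of whole reads. For the other 36, all with a baseMean of at least 1891 in 1 of the tables, several sets of whole reads gave the same means, and only bounds are reported. Recovered reads on the genes tested ran from 4776851 to 6476529 per library. Libraries were numbered arbitrarily within a group. Input library 1, PABPN RIP library 3 and PABPC RIP library 1 stood apart, since their deviations from the group means correlated at 0.587 to 0.76 with each other (a description over 7359 genes) and negatively with the other libraries. All 8 markers of the cell line were present, from PAX2 with baseMean of 265 and 150 to NEFM with 56817 and 68292, and of 7 markers of other cell types 6 had 0 to 51.2 while the fibroblast marker COL1A1 had 455 and 320.

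GENCODE release 44 on hg38, the build of the files, held 162 of the 166 genes, each of them as a lncRNA, and gave a symbol to 49 that had none in the deposited tables. Of these symbols, 24 end in DT, for divergent transcript, 16 hold AS, for antisense, and 8 start with LINC. The genes ran from 638 to 1013280 bases in genomic span, with a median of 74138 bases. Exons made up a median of 4.72% of the span, and 15 genes had 1 exon. In 55 genes a coding gene started within 1 kb on the other strand. Another gene overlapped 88 of them on the same strand and 129 on the opposite strand, and 11 were free of any overlap. Stretches shared by overlapping genes had been removed before counting, but whether reads were counted by strand was not given in the sources used here, so reads of overlapping genes cannot be told apart with certainty.

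The 3′ ends of the genes at both extremes of the difference between the RIPs are shown because a poly(A) tail is what both proteins bind, and the signal for adding it lies in the last bases of a transcript. The lines give the last 40 bases of the representative GENCODE 44 transcript on hg38, 5′ to 3′ on the strand of the gene, with the hexamer AATAAA or ATTAAA in capitals where the script found it. The first group had the highest PABPN RIP level relative to PABPC RIP, and the second group the lowest.
ENSG00000287976, chr6:148018946-148018985, plus strand: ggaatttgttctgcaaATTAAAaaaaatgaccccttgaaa
ENSG00000241956, chr5:165171604-165171643, plus strand: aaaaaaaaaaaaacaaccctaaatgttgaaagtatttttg
ENSG00000283415, chr11:6821942-6821981, minus strand: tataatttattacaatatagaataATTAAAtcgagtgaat
ENSG00000263731, chr17:81878425-81878464, minus strand: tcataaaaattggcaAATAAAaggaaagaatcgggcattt
ENSG00000238045, chr16:29808929-29808968, minus strand: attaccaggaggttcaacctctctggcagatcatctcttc
ENSG00000283103, chr19:58309727-58309766, minus strand: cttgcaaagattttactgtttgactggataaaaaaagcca
ENSG00000286388, chr5:1350747-1350786, plus strand: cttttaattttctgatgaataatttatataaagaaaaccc
The first 3 lines form the first group. ENSG00000237838, the highest of all, had no entry in GENCODE 44. A hexamer was present in 2 of the 3 shown ends of the first group and in 1 of the 4 of the second.

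Over all 162 annotated ends, AATAAA was found in 39 and ATTAAA alone in 14, together 32.7%. The same window held either hexamer in 41.4% of 1649 lncRNAs and in 80.5% of 12450 protein coding genes, counting those whose baseMean exceeded 50 in each table. The 41 genes with a hexamer and recovered reads had a median log2 difference of -1.78 between PABPC RIP and input, and the 85 without had -1.95. With PABPN the medians were 0.22 and 0.08. Annotated ends of lncRNAs are often incomplete, and no site of polyadenylation was measured in these libraries.

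Relative to total RNA, most of the unnamed lncRNAs were lower in PABPC RIP. Of the 130 tested, 90 were depleted (69.2%) and 19 were enriched (14.6%), where a gene was called if limma gave an adjusted p no higher than 0.01 and the log2 difference lay beyond 0.5. Among all 8029 genes tested 31.9% were depleted and 38.2% were enriched by the same rule. The median log2 difference was -1.86 over the unnamed lncRNAs and 0.15 over all genes. PABPC RIP lay at least 4-fold below input in 60 of them and at least 16-fold below in 13. Of the 130, 72 had a PABPC RIP mean under 300. These passed the threshold with PABPC through their input level, so their depletion follows in part from the rule and is given as a description. In the 10 genes tested that no other gene overlapped, 5 were depleted and 3 enriched, with a median of -0.56. The lncRNAs with a symbol above the same threshold had 65.0% depleted and 19.6% enriched of 214, with a median of -1.33, and protein coding genes above it had 20.9% and 47.5% of 4142, with a median of 0.45. Only genes with recovered reads are in these sets, 214 of 330 lncRNAs with a symbol and 4142 of 10489 coding genes. Abundant genes are left out, and the share left out is largest for coding genes.

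**Figure D1:**
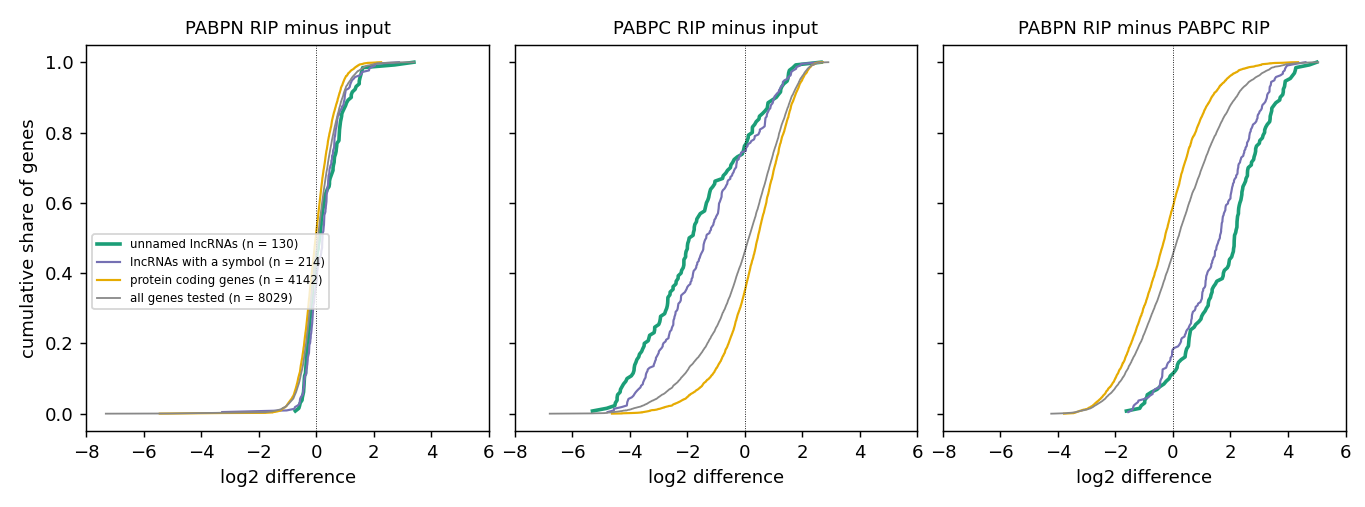
Cumulative share of genes (vertical axis) against the log2 difference (horizontal axis) in the 3 comparisons, for the unnamed lncRNAs, lncRNAs with a symbol and protein coding genes above the same baseMean threshold, and all genes tested. The curve of the unnamed lncRNAs lies left of the coding genes in PABPC RIP minus input (medians -1.86 and 0.45) and right of them in PABPN RIP minus PABPC RIP, while the medians are 0.12 and -0.02 in PABPN RIP minus input.

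The 5 genes with the strongest loss from PABPC RIP lay at -5.29 to -4.44 on the log2 scale. They too passed the threshold with PABPC through input, so their loss is given as a description. ENSG00000237838 had normalised read counts of 1568, 1374 and 1419 in input, 1146, 1201 and 1207 in PABPN RIP, and 36.65, 33.15 and 40.03 in PABPC RIP. The PABPC RIP values lay far below the other groups, and the PABPN RIP values just under the lowest input library. Its change was -5.29 with PABPC (SE 0.106, adjusted p = 1.81e-10) and -0.29 with PABPN (SE 0.106, adjusted p = 0.0408), short of the cut-off, which it passed at -0.52 with recomputed size factors.

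ENSG00000287976 (chr6:148001716-148018985, plus strand), with 2 exons over 17270 bases, read 734, 725 and 814 in input, 740, 754 and 692 in PABPN RIP, and 18.3, 34.4 and 30.4 in PABPC RIP. Input and PABPN RIP overlapped, whereas no PABPC RIP library came near them. The PABPC change was -4.79 (SE 0.198, adjusted p = 4.28e-09) and the PABPN change -0.05 (SE 0.198, adjusted p = 0.84). It is the shortest of the 4 annotated genes in this group.

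ENSG00000241956 (chr5:164296696-165171643, plus strand), named LINC03000 in GENCODE 44, spans 874948 bases. Input libraries gave 1692, 1542 and 1659, PABPN RIP libraries 1270, 1339 and 1603, and PABPC RIP libraries 81.0, 58.9 and 77.3. PABPN RIP and input overlapped, and all PABPC RIP values were lower than either by more than an order of magnitude. The change was -4.50 with PABPC (SE 0.136, adjusted p = 6.99e-10) and -0.22 with PABPN (SE 0.136, adjusted p = 0.203). The other 2 genes were ENSG00000283982, with 28 exons over 171697 bases, at -4.52 (SE 0.232), and ENSG00000242880, which starts within 1 kb of the zinc finger gene ZBTB20 on the other strand, at -4.44 (SE 0.191).

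The 19 genes enriched with PABPC all spanned under 100 kb. ENSG00000238045 (chr16:29808636-29821252, minus strand), called MVP-DT in GENCODE 44 because it diverges from the promoter of the major vault protein gene MVP, had 292, 349 and 245 in input, 427, 440 and 483 in PABPN RIP, and 944, 973 and 1095 in PABPC RIP. The groups did not overlap and rose in that order. Its change was 1.77 with PABPC (SE 0.133, adjusted p = 2.7e-07) and 0.62 with PABPN (SE 0.133, adjusted p = 0.00288). The PABPN call was lost without input library 3, at 0.49, and with recomputed size factors, at 0.39. ENSG00000238045 overlaps 7 genes on the opposite strand, 6 of them coding, among them MVP, MAZ, PAGR1 and PRRT2. Its reads cannot be told apart from theirs with certainty.

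ENSG00000263731 (chr17:81878425-81881106, minus strand) is a single exon of 2682 bases that ends in an AATAAA hexamer, printed above. It read 340, 457 and 469 in input, 429, 368 and 402 in PABPN RIP, and 1037, 1363 and 1310 in PABPC RIP. PABPN RIP lay within the range of input, and every PABPC RIP library was above both. The PABPC change was 1.56 (SE 0.148, adjusted p = 1.91e-06) and the PABPN change -0.07 (SE 0.148, adjusted p = 0.743).

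ENSG00000286388 (chr5:1345197-1350786, plus strand), divergent from CLPTM1L, had 661, 379 and 440 in input, 759, 719 and 860 in PABPN RIP, and 2052, 1322 and 1342 in PABPC RIP. Input library 1 and PABPC RIP library 1, which belong to the libraries that stood apart, were the highest of their groups. It rose with PABPC by 1.68 (SE 0.213, adjusted p = 2e-05) and at 1.70 without the 3 libraries. ENSG00000272084, a single exon of 3402 bases inside the ubiquitin ligase gene UBR4 on its strand, rose by 1.53 with PABPC (SE 0.085) and by 0.98 with PABPN (SE 0.085), and its reads cannot be told apart from those of UBR4.

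**Figure D2:**
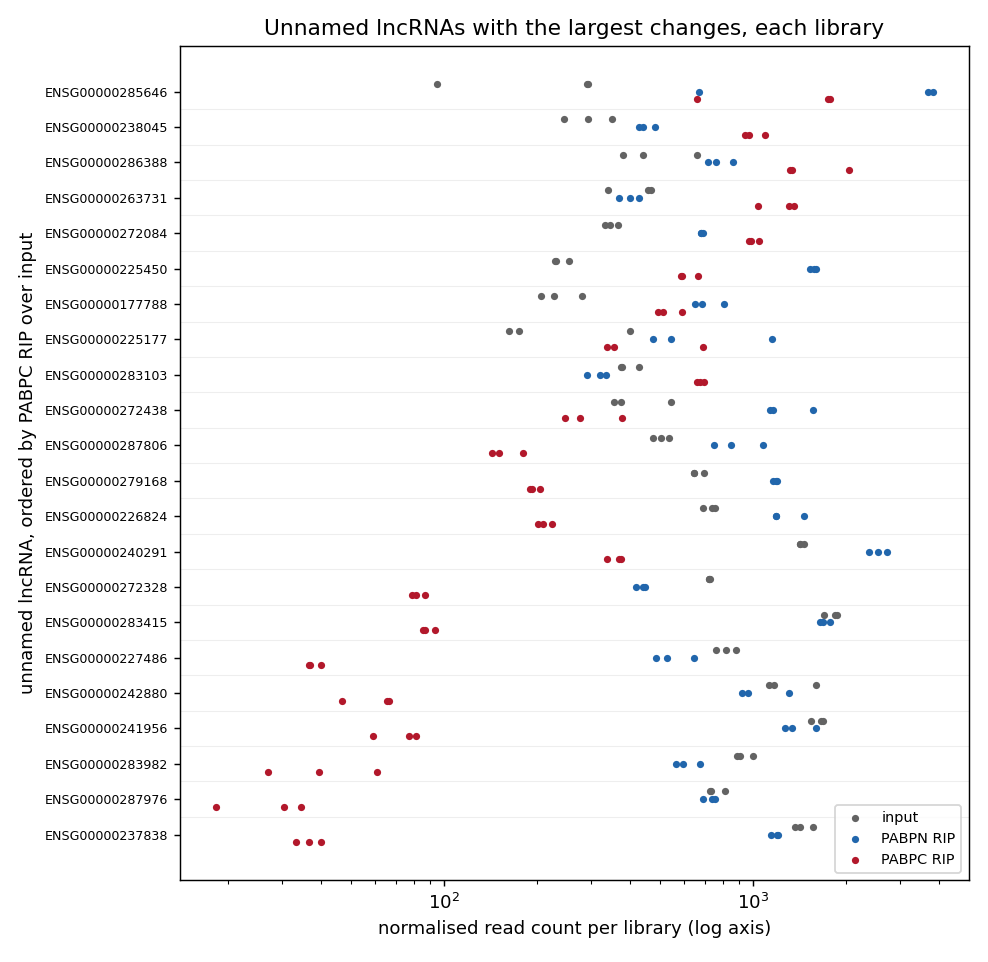
Normalised read count in each library (horizontal log axis) for the unnamed lncRNAs with the largest changes, ordered by PABPC RIP over input (vertical axis), with 3 points per group. At the bottom the PABPC RIP points of ENSG00000237838 (33.15 to 40.03) lie far left of input and PABPN RIP, and at the top ENSG00000285646 shows 1 low library in each group.

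With PABPN the levels stayed near input for most of these genes. Of the 130, 39 were enriched (30%) and 2 were depleted (1.54%), beside 19.4% and 9.54% of all genes tested, and the median log2 difference was 0.12 beside 0.06. This split depended on the scaling: with median-of-ratios size factors recomputed over the genes tested 27 were enriched (20.8%) and 20 depleted (15.4%), beside 12.2% and 20.7% of all genes, and with total recovered reads 33 (25.4%) and 8 (6.15%), beside 15.9% and 12.7%. Under the recomputed factors the median of all genes moved to -0.18 and that of the unnamed lncRNAs to -0.11. New size factors shift every gene by nearly the same amount, so the distance between these medians could not change. Of lncRNAs with a symbol 23.8% were enriched and 2.80% depleted, and of protein coding genes 17.4% and 13.9%.

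Of the 5 genes with the highest changes with PABPN, 4 (ENSG00000285646, ENSG00000225450, ENSG00000177788 and ENSG00000225177) had input means of 226 to 245, below the threshold, as did ENSG00000238045 with 295. They entered only because they were high in the RIPs, so their enrichment follows in part from the rule and is given as a description. The highest change belonged to ENSG00000285646 (chr1:11907940-11914298, plus strand). Input libraries gave 94.96, 290 and 293, PABPN RIP libraries 3688, 3825 and 671, and PABPC RIP libraries 658, 1784 and 1748. Both RIPs lay above input without overlap, and the low value of each group was in the 3 libraries that stood apart. The change was 3.39 with PABPN (SE 0.674, adjusted p = 0.00182) and 2.66 with PABPC (SE 0.674, adjusted p = 0.00344). Without those 3 libraries it was 3.68 and 2.60, and the PABPC call was lost without input library 1, without PABPC RIP library 2, without PABPC RIP library 3 and with voom weights. The difference between the RIPs was 0.73 (adjusted p = 0.326) with all libraries and 1.09, past the cut-off, without the 3. RNU5E-1, a gene of 120 bases for the U5 small nuclear RNA of the spliceosome, lies inside it on the same strand and had no value of its own.

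ENSG00000225450 (chr22:38739003-38749041, plus strand), opposite to the nuclear envelope gene SUN2, read 254, 229 and 231 in input, 1581, 1605 and 1532 in PABPN RIP, and 589, 585 and 663 in PABPC RIP. The groups did not overlap, with PABPN RIP highest in every library. It rose by 2.72 with PABPN (SE 0.092, adjusted p = 1.74e-08) and by 1.36 with PABPC (SE 0.092, adjusted p = 1.24e-07). On its own strand the gene overlaps ENSG00000272669 and ENSG00000273076 and lies 13 bases downstream of ENSG00000230149. Reads of these genes cannot be told apart with certainty. The tests against input share the input libraries, so their errors are not independent.

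ENSG00000272438 (chr1:904834-915976, plus strand) gave 542, 375 and 355 in input, 1164, 1135 and 1566 in PABPN RIP, and 378, 247 and 276 in PABPC RIP. PABPN RIP was above the other groups in every library, and PABPC RIP overlapped input. The PABPN change was 1.61 (SE 0.203, adjusted p = 9.32e-05) and the PABPC change -0.50 (SE 0.203, adjusted p = 0.0409), which was called with total recovered reads, at -0.88, and without PABPC RIP library 1, at -0.67. ENSG00000177788, the antisense partner RAB4A-AS1 of the endosomal GTPase gene RAB4A, rose by 1.59 with PABPN (SE 0.138) and by 1.17 with PABPC (SE 0.138). ENSG00000225177, named NHSL1-AS1, read 400, 175 and 162 in input and 474, 544 and 1152 in PABPN RIP, so that the highest value of each group lay in a library that stood apart. It rose by 1.57 with PABPN (SE 0.415, adjusted p = 0.00947), a call that was lost under 11 of 21 other settings, with 1.18 without PABPN RIP library 3, and without the 3 libraries the change was 1.59.

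The 2 genes depleted from PABPN were depleted from PABPC as well. ENSG00000272328 (chr7:8303741-8341343, plus strand) read 721, 727 and 720 in input, 418, 449 and 440 in PABPN RIP, and 81.0, 87.2 and 78.7 in PABPC RIP. The groups did not overlap and the libraries of each lay close together. It fell by 0.73 with PABPN (SE 0.0998, adjusted p = 0.000161) and by 3.13 with PABPC (SE 0.0998, adjusted p = 8.95e-10). ENSG00000227486 (chrX:55908123-56209271, plus strand) had 883, 761 and 819 in input, 485, 526 and 644 in PABPN RIP, and 36.65, 36.84 and 40.03 in PABPC RIP. It fell by 0.58 with PABPN (SE 0.131, adjusted p = 0.00384), and PABPC gave a change of -4.42 (SE 0.131, adjusted p = 6.1e-10). The PABPN call was lost without PABPN RIP library 1 or 2 and without input library 1 or 3, at -0.58 to -0.49.

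The RIPs were then compared directly. PABPN RIP was above PABPC RIP in 103 of the 130 genes (79.2%) and below it in 9 (6.92%), where 39.6% and 31.9% of all genes tested passed the same rule. The median difference was 2.14 over the unnamed lncRNAs and 0.17 over all genes, 1.63 over lncRNAs with a symbol and -0.29 over protein coding genes. In the 10 unnamed lncRNAs free of overlap it was 0.94, with 7 higher in PABPN RIP and 1 lower. The 4 highest differences were those of ENSG00000237838 at 5.00 (SE 0.106), ENSG00000287976 at 4.74 (SE 0.198), ENSG00000241956 at 4.27 (SE 0.136) and ENSG00000283415 at 4.25 (SE 0.0877). ENSG00000283415 (chr11:6821942-6926878, minus strand) diverges from the zinc finger gene ZNF215 and runs through a cluster of olfactory receptor genes. It read 1696, 1841 and 1868 in input, 1652, 1773 and 1693 in PABPN RIP, and 85.85, 87.2 and 93.9 in PABPC RIP. PABPN RIP overlapped input, and the PABPC RIP libraries lay within a narrow range far below.

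At the other end, ENSG00000263731 stood at -1.62 (SE 0.148), ENSG00000238045 at -1.16 (SE 0.133), ENSG00000283103 at -1.10 (SE 0.101) and ENSG00000286388 at -0.99 (SE 0.213), whose call was lost with total recovered reads, at -0.69. ENSG00000283103 (chr19:58309727-58327252, minus strand), divergent from ZSCAN22, gave 374, 428 and 378 in input, 334, 290 and 321 in PABPN RIP, and 661, 675 and 694 in PABPC RIP. PABPN RIP lay below and PABPC RIP above every input library. The PABPC change of 0.79 (SE 0.101, adjusted p = 2.34e-05) passed the cut-off and the PABPN change of -0.32 (SE 0.101, adjusted p = 0.0235) did not. With total recovered reads the PABPC call was lost, at 0.40, and with recomputed size factors the PABPN change was called, at -0.55.

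**Figure D3:**
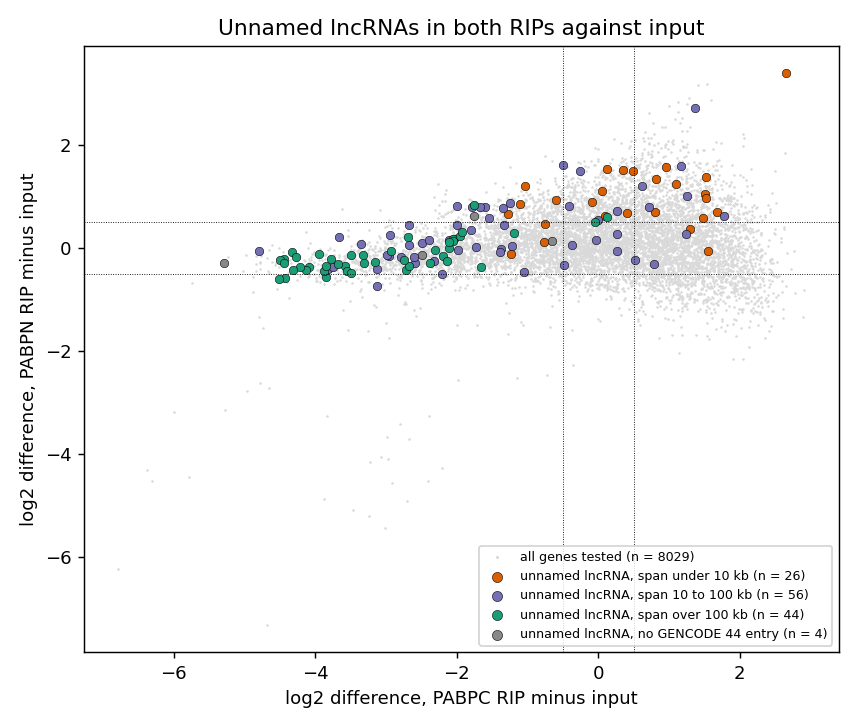
log2 difference of PABPN RIP minus input (vertical axis) against PABPC RIP minus input (horizontal axis) for each unnamed lncRNA, coloured by annotated span, over all genes tested in grey, with dotted lines at the cut-off of 0.5 on either side of 0. Genes spanning over 100 kb (n = 44) fill the left side near 0 on the vertical axis, and those under 10 kb (n = 26) have medians of 0.45 on the horizontal and 0.91 on the vertical axis.

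The calls against input, set side by side, divided the genes into 7 combinations. The largest held 76 genes (58.5%) depleted from PABPC and not called with PABPN, with a median span of 108 kb, a combination that held 27.4% of all genes tested. Both RIPs were enriched in 13 genes (10%, beside 9.15% of all genes), of which 6 had 1 exon, with a median span of 9.81 kb. That share lies near the share over all genes. Of the 10 genes with an input mean of 300 or less, 7 were enriched with PABPN and 8 with PABPC. They entered only through the RIPs, so the counts of enriched genes in these combinations follow in part from the rule. PABPN alone was enriched in 14 genes (10.8%, beside 7.56%; median span 9.40 kb) and PABPC alone in 6 (4.62%, beside 22.9%; 7.88 kb), and 7 were called in neither (5.38%, beside 20.8%). Another 12 were enriched with PABPN and depleted from PABPC (9.23%, beside 2.64%), and 2 were depleted from both (1.54%, beside 1.89%). The reverse, depleted from PABPN and enriched with PABPC, held 0 of the 130 and 6.13% of all genes, and depletion from PABPN alone 0 and 1.52%. The combinations depend on the scaling and are given for the authors' size factors. With recomputed factors 20 of the 130 were depleted from PABPN (15.4%, beside 20.7% of all genes). ENSG00000283103 then fell in the reverse combination, with a PABPN change of -0.55. Both comparisons use the same input libraries, so these counts are not independent of one another.

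Among the 12 genes with opposite calls, ENSG00000240291 (chr10:18513115-18545651, minus strand), which overlaps the RNA methyltransferase gene NSUN6 on its strand, had 1418, 1462 and 1426 in input, 2387, 2541 and 2721 in PABPN RIP, and 338, 373 and 370 in PABPC RIP. Each PABPN RIP library was above and each PABPC RIP library below every input. The changes were 0.83 with PABPN (SE 0.0826, adjusted p = 2.01e-05) and -1.99 with PABPC (SE 0.0826, adjusted p = 4.44e-09). ENSG00000279168 (0.84 and -1.75), ENSG00000226824, which overlaps RABGEF1 (0.81 and -1.78), and ENSG00000287806 (0.80 and -1.68) had the same pattern. The 12 genes spanned 6.98 to 100 kb, and 7 of them overlapped another gene on the same strand. With a log2 cut-off of 1 none of these 4 PABPN calls was kept.

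The span of the gene went with the level in PABPC RIP. In the 44 genes over 100 kb the median PABPC difference was -3.32, with 42 depleted (95.5%) and 0 enriched, beside 82.5% and 2.60% of all 1344 genes tested of that span, and the median normalised read count was 958 in input, 894 in PABPN RIP and 113 in PABPC RIP. In the 56 genes of 10 to 100 kb the median was -1.64, with 37 depleted (66.1%) and 9 enriched (16.1%), beside 26.5% and 33.4% of all 4683 genes of that span. In the 26 genes under 10 kb it was 0.45, with 7 depleted (26.9%) and 10 enriched (38.5%), beside 9.86% and 73.8% of all 1977 such genes. Of lncRNAs with a symbol 92.2% of 77 were depleted over 100 kb, and under 10 kb 10% of 30 were depleted and 76.7% enriched. The 13 single-exon genes had medians of 1.10 with PABPC and 0.98 with PABPN.

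Across the 126 genes with a span, Spearman's rho with the PABPC difference was -0.761, and with the PABPN difference -0.627. With exonic length in place of span it was -0.00961 and -0.145. The genes share libraries and are not independent, and intronic reads were counted. The relation extended to other genes, since rho with PABPC was -0.657 over all 8004 genes with a span, and -0.76 over protein coding genes above the threshold. With PABPN it was weaker there, -0.241 over all genes and -0.138 over protein coding genes. In the 214 lncRNAs with a symbol above the threshold rho was -0.688 with PABPC and -0.56 with PABPN. These lie near the values of the unnamed lncRNAs, so the relation with PABPN was shared by other lncRNAs. Over 100 kb the PABPC medians were -2.61 for lncRNAs with a symbol and -1.31 for protein coding genes.

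**Figure D4:**
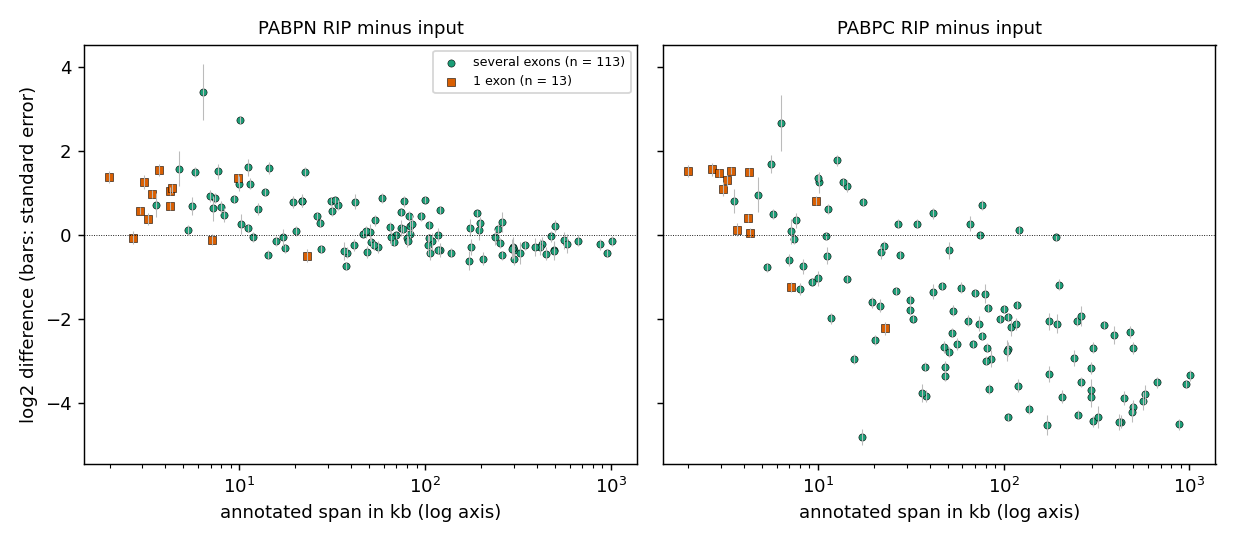
log2 difference from input in PABPN RIP (left) and PABPC RIP (right) against the annotated span in kb on a log axis, for the 126 unnamed lncRNAs with a GENCODE 44 entry, bars giving the standard error. In genes under 10 kb the PABPC values spread on both sides of input (median 0.45, with 10 of 26 enriched and 7 depleted). Over 100 kb their median is -3.32. The PABPN medians are 0.91 under 10 kb, 0.17 from 10 to 100 kb and -0.22 over 100 kb.

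The genes with the most recovered input reads were lower in PABPC RIP as well. Recovery falls with the mean, and the highest baseMean among recovered unnamed lncRNAs was 2878. A gene with this much input was thus less likely to be recovered if it was also high in the RIPs. Their lower RIP levels follow in part from this limit and are given as a description. ENSG00000258526 (chr14:39432599-40390547, plus strand), divergent from FBXO33, read 2518, 2580 and 2877 in input, 1878, 2042 and 1963 in PABPN RIP, and 205, 231 and 246 in PABPC RIP. The groups did not overlap. It fell by 3.55 with PABPC (SE 0.0938) and by 0.44 with PABPN (SE 0.0938, adjusted p = 0.0029), inside the cut-off, though it passed at -0.67 with recomputed factors and at -0.52 with total reads. ENSG00000285534, downstream of the insulin receptor substrate gene IRS2, read 2187, 2137 and 2213 in input and 98.4, 108 and 135 in PABPC RIP, a change of -4.26 (SE 0.117). ENSG00000286797, ENSG00000253706 and ENSG00000247134 had PABPC changes of -2.99, -2.60 and -1.66, and PABPN changes between -0.36 and -0.14. None of these PABPN changes passed the cut-off, though that of ENSG00000247134 did with recomputed factors, at -0.59.

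Among the 36 genes without recovered reads, 34 had a higher PABPN RIP than PABPC RIP level, by at least 1.00 to 2.10-fold (median bound 1.70), and 2 the reverse. These bounds follow from the paired means alone and allow any larger difference. ENSG00000233611, named GBX2-AS1, had baseMean of 3503 with PABPN and 1414 with PABPC, hence at least 2.10-fold more in PABPN RIP. ENSG00000259692 (chr15, span 380 kb), the highest of the long genes, had 26893 and 13206, at least 1.72-fold. ENSG00000279738, a single exon of 19416 bases inside the translation initiation factor gene EIF3L on its strand, had 3121 and 6981, which makes PABPC RIP at least 2.60-fold higher than PABPN RIP and at least 1.61-fold higher than input.

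The largest means belonged to genes that enclose tail-less RNAs made by RNA polymerase III. ENSG00000259001 (chr14:20343048-20343685, minus strand) had baseMean of 97205 and 81868, and 333 of its 638 bases are RPPH1, the RNA of ribonuclease P. ENSG00000282885 (chr14:49861176-49868192, minus strand), with 79126 and 69858, encloses RN7SL2, the RNA of the signal recognition particle. Their bounds were 1.00-fold toward PABPN and 1.03-fold toward PABPC. Bounds so close to 1 do not show equal levels in the RIPs, because both means include the same input. RPPH1 and RN7SL2 had no value of their own, so reads of each pair cannot be told apart. In all, 21 of the 166 genes enclosed 1 small RNA gene each on the same strand, and 0 of the 21 small RNA genes had its own value. RNY1, a named RNA polymerase III transcript of this kind, stood at -4.89 with PABPN and -3.87 with PABPC.

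**Figure D5:**
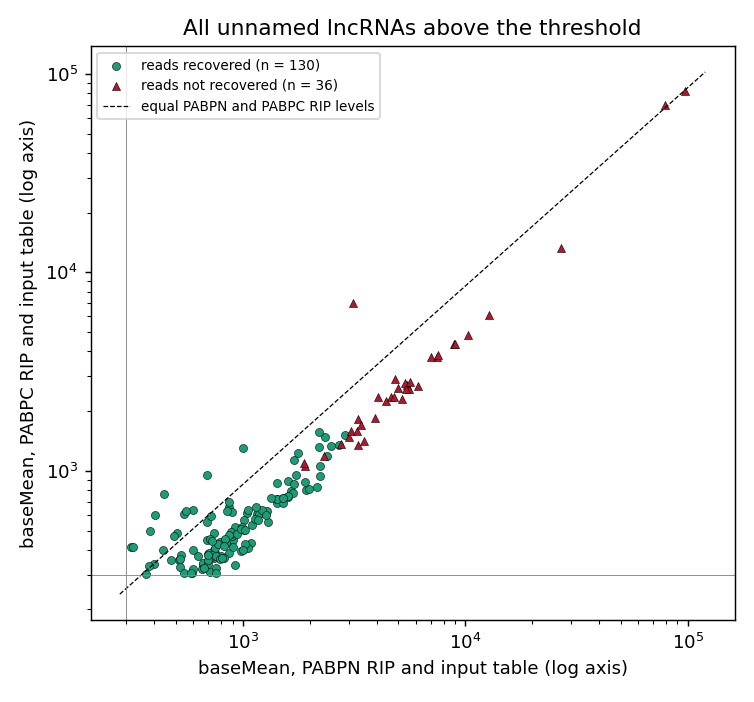
baseMean of each of the 166 unnamed lncRNAs in the table of PABPC RIP and input (vertical log axis) against the table of PABPN RIP and input (horizontal log axis), with recovered reads (n = 130) and without (n = 36). Grey lines mark the threshold of 300, and the dashed line marks equal levels in both RIPs. The 2 highest genes lie near it and most others below it. Both means include the same input, so a gene low in both RIPs lies near the line whatever the ratio between the RIPs.

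At the threshold, the genes just inside were ENSG00000249042 (baseMean 367 and 301), with changes of 0.80 and 0.71 with PABPN and PABPC, and ENSG00000214955 (588 and 306), with -0.36 and -3.58. The genes just outside were ENSG00000255135 (404 and 298), with 1.53 and 1.25, and ENSG00000226380 (652 and 297), with -0.09 and -4.75. Another 122 unnamed lncRNAs passed 300 in the PABPN table alone and 9 in the PABPC table alone. The same input reads count 0.846 to 0.86 times as much in the PABPC table, so genes near the threshold can pass with PABPN alone. How many of the 122 were left out through a low PABPC RIP level was not counted. Of the 130 tested, 120 had an input mean above 300 and 10 passed through the RIPs, and of these 10, 7 were enriched with PABPN and 8 with PABPC. Group means are on 1 scale for all 9 libraries, whereas the threshold was applied to each baseMean on its own scale. Genes near 300 can therefore fall on the other side, and some of the 120 may also have passed through a RIP. The counts by group mean are approximate. Within the 120 the counts were 32 enriched and 2 depleted with PABPN, and 11 and 90 with PABPC. Of the 130, 72 had a PABPC RIP mean under 300 and passed with PABPC through input, and 48 had every group mean above 300. Depletion from PABPC therefore follows in part from the rule as well.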

How the data were processed

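Groups came from the sample titles. The authors aligned reads to the hg38 primary assembly with STAR, counted exonic and intronic reads together with featureCounts 2.0.2 on an annotation derived from GENCODE 34 without stretches shared by genes, removed genes with transcription from upstream, and compared each RIP with input in DESeq2. The signal deposited by the authors, baseMean, is the mean over 6 libraries of counts divided by size factors. Their fold change, standard error, statistic and p columns were not used, and 0 other columns of values per sample were left out.

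The value of 1 read in each library was read from the 6 most frequent low baseMean values of each table, 3 of which belonged to libraries shared by both tables, the input. Lattice reduction then listed sets of 9 whole numbers that give both means, weighted by how alike libraries of a group are in other genes, and a gene was accepted when 1 set held at least 0.99 of the weight. Of the unnamed lncRNAs accepted, 11 had several sets and rest on that weight. This was tested on simulated data, in which no accepted set was wrong where the mean was a sum of whole reads. Above a baseMean of 300, the range of every unnamed lncRNA here, some test means built not to be such sums were accepted too, so recovery there assumes that the means are whole-read sums and cannot show it. Below a baseMean of 1000, 5307 of 5309 genes had exactly 1 set. Recovery falls with the mean, so the genes tested leave out abundant ones. Reads were divided by the authors' size factors, and log2(value + 0.5) was fitted in limma 3.58.1 (R 4.3.3; lmFit, contrasts, eBayes with trend) over 9 libraries, with two-sided tests and Benjamini-Hochberg adjustment over 8029 genes. The median SE of a log2 difference was 0.14. A first fit used size factors recomputed over the genes tested. The authors' factors, which rest on all genes, replaced them after that result was seen, and both are reported.

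Genes named were those with the most input reads, the largest changes and differences past the cut-offs, opposite or shared losses, and the nearest to the threshold. The 5 genes named without recovered reads, for which the rule makes no choice, were picked after their values were seen. Members, lists and tests were chosen with earlier results of these data known. Of the reference lncRNAs, 0 of 8 nuclear and 0 of 8 cytoplasmic ones and 1 of 4 without a tail had recovered reads. Alternatives were scaling, pseudocount, filters, weights, cut-offs, subsets and leaving out libraries. Positions and sequences are from GENCODE 44.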

Additional observations from a re-analysis of the deposited data

Results flagged for a closer look

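The change over input differed between the RIPs, by a test of the difference itself in limma, in 103 unnamed lncRNAs with a higher value in PABPN RIP and in 9 with a lower value. The largest such differences toward PABPN were 5.00 for ENSG00000237838, 4.74 for ENSG00000287976, 4.27 for ENSG00000241956 and 4.25 for ENSG00000283415. Toward PABPC they were -1.62 for ENSG00000263731, -1.16 for ENSG00000238045, -1.10 for ENSG00000283103 and -0.99 for ENSG00000286388. Each of these 8 was the extreme of the list by choice. Groups of 3 libraries are too small for a test of single outlying samples.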

How the results depend on the processing

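Of the 130 unnamed lncRNAs tested, 41 were called with PABPN against input, 109 with PABPC against input and 112 between the RIPs. The PABPN count fell to 17 with a log2 cut-off of 1 and to 16 with the treat test against 0.5. Over the 10 genes without any overlapping gene 3 were called with PABPN, 8 with PABPC and 8 between the RIPs. Fewer genes entered, and the medians moved too. They were 0.30 with PABPN, -0.56 with PABPC and 0.945 between the RIPs, beside 0.12, -1.86 and 2.14 over the 130. Leaving out 1 library at a time gave 35 to 43, 105 to 112 and 111 to 113 calls. Every other alternative kept the 3 counts within 1.5 times, including those chosen after seeing the data (recomputed size factors with 47, 109 and 108, only genes with 1 set of whole reads, only baseMean under 1500, and without the 3 libraries that stood apart, with 49, 113 and 115). Direction was less stable than number for PABPN, where the genes depleted were 2, but 20 with recomputed factors, 8 with total recovered reads, 5 with centring, 4 with voom weights and 6 without the 3 libraries. No called value of a named gene changed sign. No paired analysis was possible because the recovered libraries carry no replicate number, and sets inferred from the correlations of their own deviations were not used as a block. Total reads cover recovered genes alone, and 36 abundant genes have no value per library, so nothing here bounds their spread. The cause of each change was not tested.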
